A study of Mus musculus with 51 samples.

Results

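The insulin-like growth factor (IGF) genes examined were a secreted ligand (Igf1), its receptor (Igf1r), 6 binding proteins (Igfbp2, Igfbp3, Igfbp4, Igfbp5, Igfbp6 and Igfbp7), a protease of binding proteins (Pappa2) and an inhibitor of growth hormone and IGF signalling (Socs2). They were chosen by name, with earlier results of these data known, and taken from the array annotation by gene symbol. Only the probe sets that are annotated to 1 gene were kept. All 10 were measured, among 18194 genes in all, by 31 of 34958 such probe sets, which is 1 to 6 a gene. A probe set is a group of short oligonucleotides that together read 1 transcript, and the level of a gene is the mean log2 intensity of its probe sets. The study followed early limb development in mouse embryos of strain FVB with whole-genome Affymetrix arrays, 51 in all. Forelimbs were sampled at daily steps between E9.5 and E13.5 (3, 5, 4, 5 and 5 arrays in order of stage), hindlimbs likewise between E10.5 and E13.5 (4, 5, 5 and 5 arrays), and intact whole embryos at each of the 5 stages (2 arrays a stage). No mutant allele or agent is named for any group, and E0.5 was noon of the day of the copulatory plug. Each array held RNA of 1 embryo, the limb replicates of a stage came from 1 litter, and litter and stage cannot be told apart. The p-values therefore measure the spread between embryos within groups, littermates in the limb, pooled over all 14 groups with whole embryo included.

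IGF ligands bind IGF1R, a receptor tyrosine kinase that signals through insulin receptor substrates to the PI3K-AKT-mTOR and MAPK pathways and promotes growth and survival of cells. Outside the cell most of the ligand is held by binding proteins, which prolong its life and keep it from the receptor, and which proteases such as PAPPA2 cut to release it. SOCS2 acts inside the cell as a feedback inhibitor of the growth hormone receptor. Mice that lack Igf1 or Igf1r are small with delayed ossification, and mice that lack Socs2 are oversized.

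The arrays fell into 2 sets by their controls. All 10 whole-embryo arrays and the 3 of E9.5 forelimb read the Dap spike control at 10.71 to 13.29 (log2) and the 38 limb arrays from E10.5 on at 3.04 to 3.63. The 3′ probe set of Gapdh exceeded its 5′ probe set, a sign of RNA and labelling quality, by 1.48 to 2.85 in this first set and by -0.10 to 0.16 in the second. Limb against whole embryo from E10.5 on, and E10.5 against E9.5 forelimb, cross these sets, so that set and tissue, or set and stage, cannot be told apart there. Forelimb against hindlimb, limb stages from E10.5 on, the whole-embryo stages and E9.5 forelimb against whole embryo lie within a set. The first set was not uniform. E9.5 forelimb read Dap at 12.80 to 13.29 and the Gapdh difference at 1.48 to 1.73. Whole embryo of E9.5 to E11.5 read 10.71 to 11.74 and 2.03 to 2.85, and its Gapdh difference at E12.5 and E13.5 was 1.85 to 2.02. Comparisons within the first set can therefore carry such differences as well. Tbx5 read 7.62 to 9.94 on the 22 forelimb arrays and 5.11 to 6.27 on the 19 hindlimb arrays, and Pitx1 read 4.47 to 5.67 on forelimb and 9.81 to 10.87 on hindlimb arrays, so every limb array carried the markers of its title. The 7 limb mesenchyme markers averaged 8.88 to 10.11 in the forelimb groups and 9.41 to 9.99 in the hindlimb groups, above the whole-embryo groups. E10.5 hindlimb replicate 3 stood apart, with 7 neuron markers at a mean of 7.26, against 4.64, 4.86 and 4.92 on the other 3 arrays of its group. Leaving it out moved no log2 fold change of the 10 genes by more than 0.19 and changed the call in 2 of the 60 comparisons of these genes that hold E10.5 hindlimb. Values without it are given beside many of the results it touches, though not beside every probe set, count or median.

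**Figure D1:**
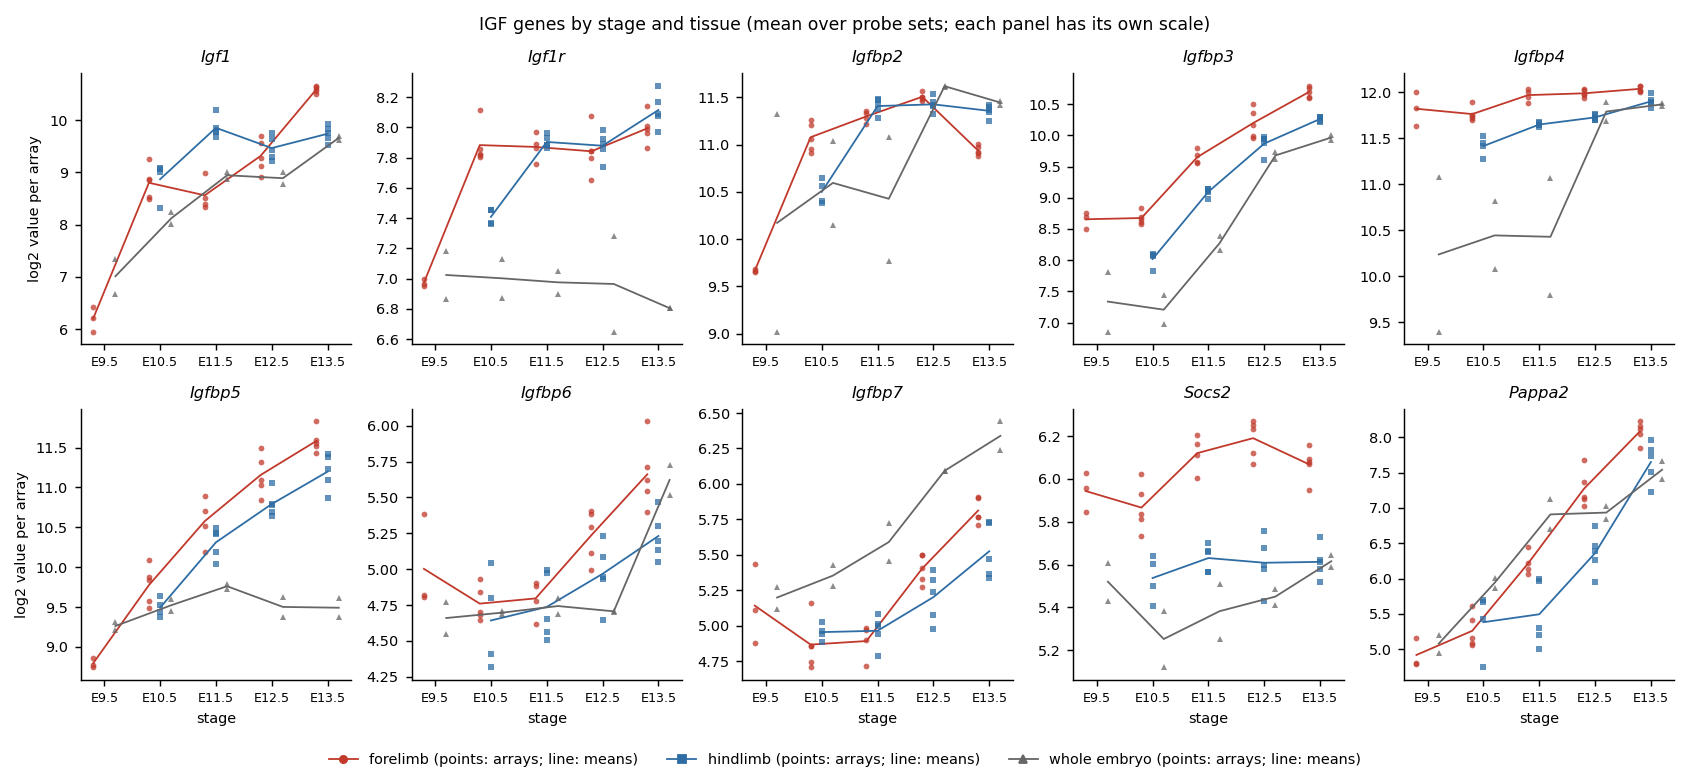
Mean log2 intensity of each of the 10 IGF genes on every array (points) by stage, with lines through the group means, in forelimb (red circles), hindlimb (blue squares) and whole embryo (grey triangles). Each panel has its own scale. Igfbp3, Igfbp5 and Pappa2 climb in both limbs, and Igf1 as the mean of its probe sets reads 9.85 at E11.5 and 9.74 at E13.5 in the hindlimb and 10.59 at E13.5 in the forelimb.

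From E10.5 to E13.5, Igfbp3, Igfbp5 and Pappa2 were up-regulated in both limbs, Igf1 was called in the forelimb and in the hindlimb on the brighter of its probe sets only, and the means of the remaining 6 genes moved by less than a fold of 2 in either limb. A gene was called changed where its fold was 2 or greater and its limma adjusted p was under 0.001 over all genes of that comparison (Benjamini-Hochberg). By this rule 4 of 10 genes were called in forelimb, 3 of 10 in hindlimb and 4 of 10 in whole embryo, all of them higher at E13.5. Of all genes, 10.6% were called in forelimb, 11.1% in hindlimb and 11.2% in whole embryo in either direction. The median log2 fold change of the 10 genes was 0.92 in forelimb, 0.78 in hindlimb and 0.96 in whole embryo, beside -0.03, -0.08 and 0.05 over all genes. Since the 10 genes were chosen with earlier results of these data known, these counts and medians describe them and test nothing. The whole-embryo calls were Igf1, Igfbp3, Igfbp4 and Pappa2. Igfbp5 had no such rise in whole embryo as the mean of its probe sets, of which 1452114_s_at rose there and 1422313_a_at fell. A lower signal of a gene in a bulk sample can come from fewer cells of a type or from less RNA per cell, and these cannot be told apart.

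**Figure D2:**
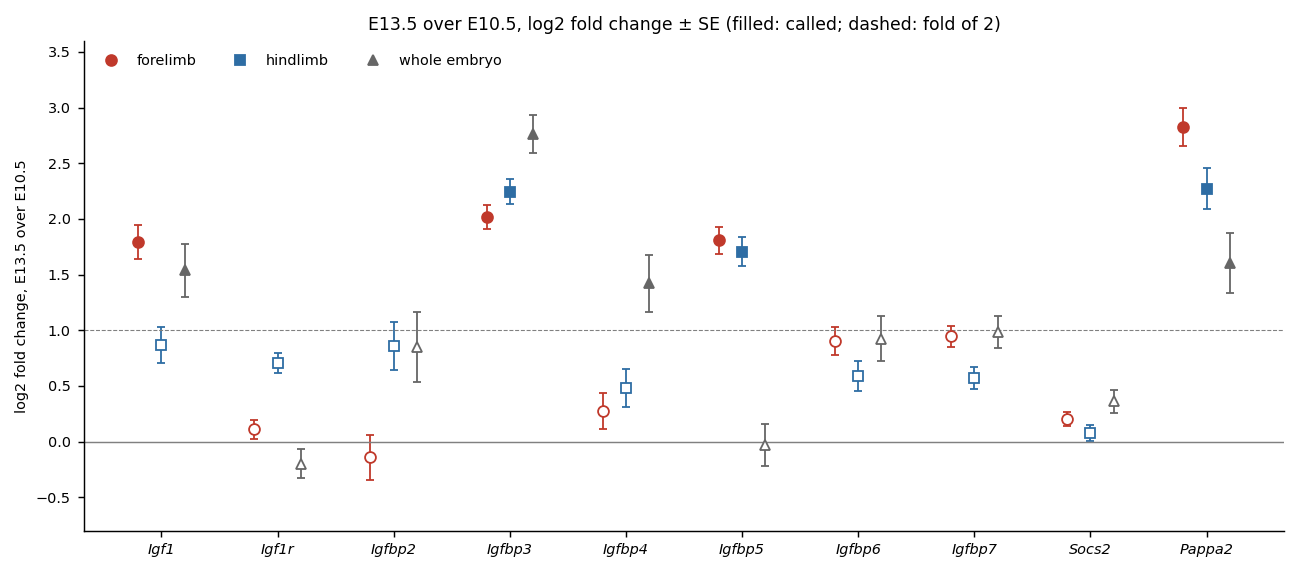
Log2 fold change of E13.5 over E10.5 (± SE) for the 10 IGF genes in forelimb, hindlimb and whole embryo. Filled points are called, dashed lines mark a fold of 2, and Igfbp5 lies at 1.81 and 1.71 in the limbs and at -0.03 in whole embryo. This last value is the mean of a probe set that rises there and another that falls.

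Igf1, the ligand, followed different courses in the 2 limbs. Forelimb read 6.42, 5.95 and 6.22 at E9.5 and 8.52, 9.26, 8.50, 8.87 and 8.85 at E10.5. It then read 8.99, 8.51, 8.34 and 8.40 at E11.5, followed by 9.57, 8.91, 9.13, 9.27 and 9.70 at E12.5 and by 10.60, 10.56, 10.66, 10.49 and 10.64 at E13.5. Hindlimb read 9.01, 9.06, 8.31 and 9.09 at E10.5, followed by 10.19, 9.85, 9.77, 9.77 and 9.68 at E11.5, by 9.74, 9.30, 9.63, 9.22 and 9.43 at E12.5, and lastly by 9.93, 9.75, 9.66, 9.52 and 9.83 at E13.5. At E11.5 the hindlimb arrays all lay above the forelimb arrays, and at E13.5 the forelimb arrays all lay above the hindlimb arrays. In the forelimb E13.5 was the highest stage, and in the hindlimb E11.5 and E13.5 overlapped. At E10.5 and E12.5 the limbs overlapped.

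At E11.5, forelimb averaged 8.56 ± 0.30 and hindlimb 9.85 ± 0.20 (log2, SD, n = 4 and 5), and Igf1 was called lower in forelimb at a log2 fold change of -1.29 ± 0.16 (SE), with a limma adjusted p of 2.65e-07. It was the only one of the 10 genes called between the limbs of 1 stage. At E13.5, forelimb averaged 10.59 ± 0.07 and hindlimb 9.74 ± 0.16 (n = 5 each), and the log2 fold change of 0.85 (adjusted p = 0.000151) fell short of a fold of 2. The fold changes at E10.5 and E12.5 were -0.07 (adjusted p = 0.833, and -0.25 without hindlimb replicate 3) and -0.15 (adjusted p = 0.591). The reversal itself, forelimb over hindlimb at E13.5 minus that at E11.5, came to 2.14 ± 0.22 (adjusted p = 5.19e-08), in a comparison added after the courses had been seen. Of all genes, 0.225% were called in it. From E10.5 to E13.5 the change of forelimb over hindlimb was 0.92 ± 0.22 (adjusted p = 0.00344), and none of the 10 genes was called, beside 0.918% of all genes. Igf1 itself passed at 1.10 (adjusted p = 0.000423) without E10.5 hindlimb replicate 3, its lowest array, and at 1.03 (adjusted p = 0.000992) without E10.5 forelimb replicate 2.

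The 4 Igf1 probe sets ran alike at E11.5, where all read lower in forelimb. Their log2 fold changes of forelimb over hindlimb were -1.55 (1419519_at), -0.95 (1434413_at), -1.14 (1437401_at) and -1.53 (1452014_a_at), with limma adjusted p-values of 1.21e-05, 3.58e-05, 5.18e-07 and 9.02e-07. The second of them, which has the highest mean, stayed under a fold of 2, so that the gene would not be called from it alone. At E13.5 all 4 read higher in forelimb, by 0.72 to 0.95. The probe sets differed in the later hindlimb. The brighter ones, 1434413_at and 1437401_at, averaged 10.91 and 10.54 at E13.5 against 10.48 and 9.99 at E11.5, without overlap, while 1419519_at and 1452014_a_at averaged 9.02 and 8.49 at E13.5 against 9.56 and 9.38 at E11.5. A higher level at E11.5 than at E13.5 was thus a feature of 2 of the 4. At E11.5 the marker lists of highest median in forelimb over hindlimb were skeletal muscle (1.05), tendon (0.67) and cartilage (0.50), and those below 0 were endothelium (-0.10), neuron (-0.06) and limb mesenchyme (-0.01). Their part in the Igf1 result was not tested.

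**Figure D3:**
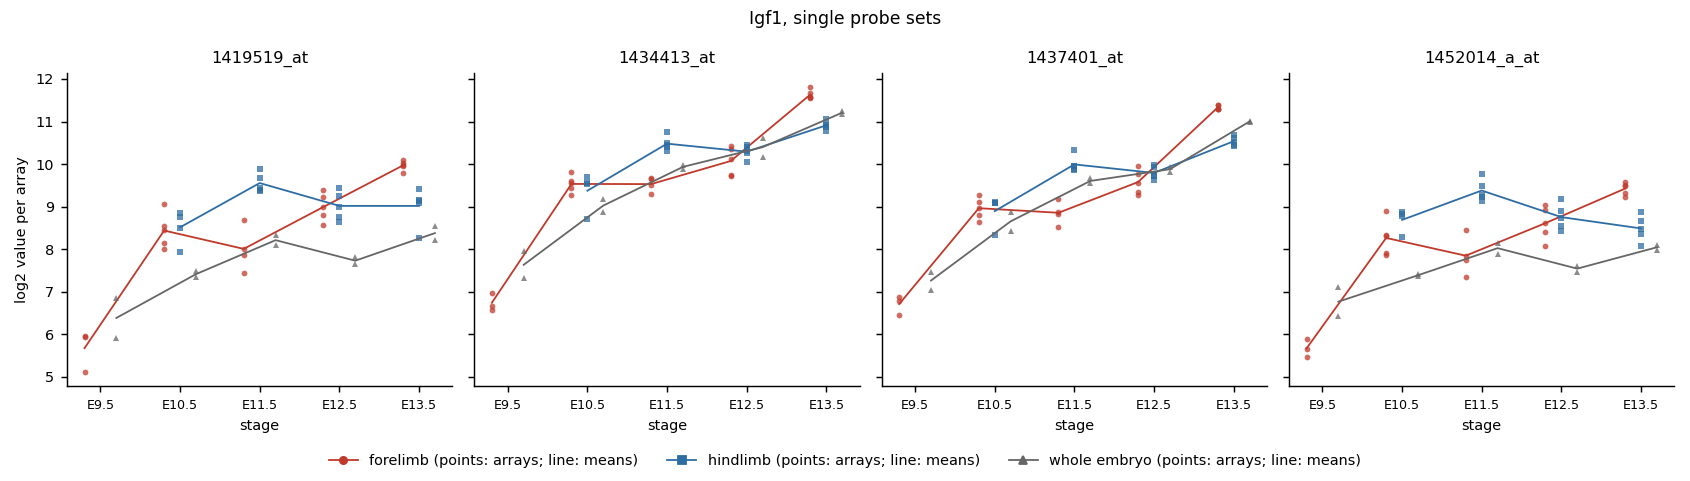
Log2 intensity of the 4 Igf1 probe sets on each array by stage. Forelimb is in red circles, hindlimb in blue squares and whole embryo in grey triangles, and all panels share the same scale. In every panel the hindlimb lies above the forelimb at E11.5 and below it at E13.5.

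Stage by stage, Igf1 in the forelimb did not pass the test at E11.5 over E10.5 (-0.24, adjusted p = 0.338), was higher at E12.5 over E11.5 by less than a fold of 2 (0.75, adjusted p = 0.000907), and was called higher at E13.5 over E12.5 (1.28 ± 0.15, adjusted p = 2.46e-09). E10.5 over E9.5 forelimb gave 2.60 ± 0.18 (adjusted p = 1.44e-16), across the 2 sets of arrays. In the hindlimb, E11.5 over E10.5 gave 0.98 (adjusted p = 4.43e-06), just under a fold of 2, and 0.80 without replicate 3 of E10.5, the lowest Igf1 array of its group. The later hindlimb steps were -0.39 (adjusted p = 0.074) and 0.27 (adjusted p = 0.161). Whole embryo averaged 7.01, 8.12, 8.94, 8.89 and 9.66 from E9.5 to E13.5, and E13.5 over E10.5 there was 1.54 ± 0.24 (adjusted p = 9.18e-07). Over the same span forelimb rose by 1.79 (adjusted p = 7.32e-14), while hindlimb changed by 0.87 (adjusted p = 9.84e-06), or 0.69 without replicate 3, and was not called. This last result depended on the probe set. The hindlimb change was 1.54 on 1434413_at (adjusted p = 6.09e-12, and 1.32 without replicate 3) and 1.64 on 1437401_at (adjusted p = 2.18e-13, and 1.45 without), both called, and 0.50 and -0.20 on 1419519_at and 1452014_a_at (0.31 and -0.34 without), neither of them called. The whole-embryo rise was likewise larger on 1434413_at and 1437401_at than on 1419519_at and 1452014_a_at, where it stayed under a fold of 2.

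Igf1r, which encodes the receptor, held a nearly level course in forelimb from E10.5 on. Group means there were 7.88, 7.87, 7.84 and 7.99, against 7.41, 7.90, 7.88 and 8.12 in hindlimb. The E10.5 hindlimb arrays, at 7.46, 7.37, 7.36 and 7.46, lay below all E10.5 forelimb arrays, at 8.11, 7.80, 7.82, 7.83 and 7.86. That difference was 0.47 ± 0.09 (adjusted p = 0.000118), or 0.46 (adjusted p = 0.00108) without hindlimb replicate 3, under a fold of 2 in both cases. From E10.5 to E13.5 the hindlimb rose by 0.71 (adjusted p = 2.21e-09, and 0.69 without replicate 3) and the forelimb changed by 0.11 (adjusted p = 0.258), neither of them a fold of 2. The change of forelimb over hindlimb was -0.60 ± 0.12 (adjusted p = 0.000481, and -0.58 with adjusted p = 0.0018 without replicate 3), again under a fold of 2. Its probe set 1428967_at was called higher in hindlimb at E13.5 over E10.5 (1.01, and 0.93 and not called without replicate 3), and its probe set 1446303_at lower in whole embryo (-1.96, adjusted p = 3.46e-09).

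Against whole embryo, Igf1r was higher on the forelimb arrays by 0.88, 0.89, 0.88 and 1.19 from E10.5 to E13.5 and on the hindlimb arrays by 0.41, 0.93, 0.91 and 1.31. It was called at E13.5 in forelimb (adjusted p = 9.71e-13) and in hindlimb (adjusted p = 5.08e-14). These values depended on the probe set: with 1452982_at alone, the one of highest mean, the E13.5 values were 0.23 (adjusted p = 0.136) in forelimb and 0.43 (adjusted p = 0.00426) in hindlimb. Its difference from 1426565_at was 1.08 to 1.94 on the limb arrays from E10.5 on and 2.30 to 5.45 on the other 13 arrays. Probe sets of Igf1r thus stood differently to each other in the 2 sets of arrays.

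Of the binding proteins, Igfbp3 and Igfbp5 were called higher in both limbs as the mean of their probe sets, and the protease gene Pappa2 rose over the same stages. IGFBP3 is the main carrier of IGF in serum, IGFBP5 also binds extracellular matrix, and PAPPA2 cleaves both. The group means of these 3 genes over the 8 limb groups from E10.5 on ran closely together, with Pearson's r of 0.99 for Igfbp3 and Igfbp5, 0.94 for Igfbp5 and Pappa2 and 0.92 for Igfbp3 and Pappa2, a description of 8 points that share arrays and stages. They were not alone in this: Igfbp4, by smaller steps, had r of 0.87, 0.83 and 0.77 with Igfbp3, Igfbp5 and Pappa2, and Igfbp6 and Igfbp7 had 0.95 each with Pappa2. The promoters of Igfbp3, Igfbp5 and Pappa2 are shown because these genes were called in both limbs, and that of Igfbp4 because its level changed by less than a fold of 2 there. The sequences are from RefSeq on build GRCm38.p6, 250 bases before to 50 bases after the start of each gene, 5′ to 3′ on its own strand, and capitals mark matches on either strand to the TATA box (TATAAA), the GC box (GGGCGG) or the CCAAT box, none of which overlaps another in the windows shown.
Igfbp3: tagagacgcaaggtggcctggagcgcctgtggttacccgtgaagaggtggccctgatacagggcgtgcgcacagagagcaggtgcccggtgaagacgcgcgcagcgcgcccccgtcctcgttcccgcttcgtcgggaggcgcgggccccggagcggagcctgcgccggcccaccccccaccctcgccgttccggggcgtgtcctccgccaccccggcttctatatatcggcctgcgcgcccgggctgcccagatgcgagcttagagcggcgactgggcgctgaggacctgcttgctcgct
Igfbp5: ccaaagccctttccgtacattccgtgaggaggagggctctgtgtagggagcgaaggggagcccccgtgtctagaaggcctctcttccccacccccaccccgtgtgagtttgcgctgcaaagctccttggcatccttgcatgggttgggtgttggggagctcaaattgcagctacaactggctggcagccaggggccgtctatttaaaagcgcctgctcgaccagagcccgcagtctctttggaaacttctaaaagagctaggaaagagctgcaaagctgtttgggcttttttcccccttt
Pappa2: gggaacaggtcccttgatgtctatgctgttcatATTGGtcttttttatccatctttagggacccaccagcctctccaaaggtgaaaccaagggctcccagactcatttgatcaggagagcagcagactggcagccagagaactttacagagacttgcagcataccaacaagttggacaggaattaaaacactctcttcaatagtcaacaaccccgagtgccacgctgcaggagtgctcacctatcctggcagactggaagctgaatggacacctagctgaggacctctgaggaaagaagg
Igfbp4: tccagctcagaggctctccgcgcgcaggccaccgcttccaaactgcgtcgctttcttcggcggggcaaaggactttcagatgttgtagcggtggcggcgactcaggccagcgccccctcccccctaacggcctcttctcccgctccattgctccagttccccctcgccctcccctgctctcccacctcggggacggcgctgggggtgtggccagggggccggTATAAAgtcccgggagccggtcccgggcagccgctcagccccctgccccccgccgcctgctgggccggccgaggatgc
Igfbp3 starts within chr11:7213874-7214173 on the minus strand, Igfbp5 within chr1:72874816-72875115 on the minus strand, Pappa2 within chr1:158958126-158958425 on the minus strand and Igfbp4 within chr11:99040994-99041293 on the plus strand. The Igfbp4 window holds the TATA box at positions -28 to -23 from the start, and the Pappa2 window holds the CCAAT box, read on the opposite strand, at -217 to -213. The Igfbp3 and Igfbp5 windows hold none of the 3 motifs, which says only that these letters are not in them. G and C made up 71.7% of the Igfbp3 window, 56.3% of that of Igfbp5, 49.7% of that of Pappa2 and 71.3% of that of Igfbp4. Of 32851 windows of the same length, 13.6% hold the TATA box, 35.7% the GC box and 37.4% the CCAAT box. A window was matched for 9 of the 10 genes. Igf1r, Igfbp2 and Igfbp7 held 2, 3 and 4 matches to the GC box, Igf1 1 to the CCAAT box, and Igfbp6 2 to the CCAAT box and 1 to the TATA box. Socs2 is named only.

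Igfbp3 in the forelimb read 8.66, 8.58, 8.70, 8.83 and 8.61 at E10.5, followed by 9.80, 9.55, 9.68 and 9.57 at E11.5, by 10.35, 9.997, 9.96, 10.17 and 10.503 at E12.5, and lastly by 10.80, 10.61, 10.70, 10.60 and 10.76 at E13.5. In the hindlimb it read 7.83, 8.10, 8.08 and 8.06 at E10.5, followed by 9.09, 9.15, 9.11, 8.99 and 9.14 at E11.5, by 9.61, 9.94, 9.97, 9.88 and 9.94 at E12.5, and lastly by 10.29, 10.29, 10.21, 10.24 and 10.29 at E13.5. In either limb the arrays of each stage lay above all those of the stage before. E13.5 over E10.5 gave log2 fold changes of 2.02 ± 0.11 in forelimb (adjusted p = 1.93e-20), 2.25 ± 0.11 in hindlimb (adjusted p = 4.56e-21, and 2.27 without replicate 3) and 2.76 ± 0.17 in whole embryo (adjusted p = 1.12e-17). Whole embryo, which rose as well, read 9.93 and 10.0002 at E13.5, against 6.97 and 7.44 at E10.5. Forelimb over hindlimb was 0.66 (adjusted p = 4.85e-05, and 0.68 without hindlimb replicate 3), 0.55 (adjusted p = 0.00113), 0.33 (adjusted p = 0.0425) and 0.43 (adjusted p = 0.00732) from E10.5 to E13.5, never a fold of 2, and the limbs overlapped at E12.5 only.

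Igfbp5 in the forelimb read 9.57, 9.84, 9.49, 10.10 and 9.87 at E10.5, followed by 10.90, 10.52, 10.19 and 10.71 at E11.5, by 11.32, 11.03, 10.84, 11.09 and 11.498 at E12.5, and lastly by 11.59, 11.43, 11.55, 11.52 and 11.83 at E13.5. In the hindlimb it read 9.37, 9.52, 9.44 and 9.63 at E10.5, followed by 10.49, 10.43, 10.19, 10.04 and 10.42 at E11.5, by 10.79, 10.78, 11.06, 10.64 and 10.69 at E12.5, and lastly by 11.39, 11.23, 11.09, 10.87 and 11.41 at E13.5. Whole embryo stayed between 9.21 and 9.79 at all 5 stages. On the mean of the probe sets the limbs thus climbed while whole embryo did not. E13.5 over E10.5 was 1.81 ± 0.12 in forelimb (adjusted p = 3.59e-17), 1.71 ± 0.13 in hindlimb (adjusted p = 1.63e-15, and 1.69 without replicate 3) and -0.03 ± 0.19 in whole embryo (adjusted p = 0.913). The limb change exceeded that of whole embryo by 1.84 ± 0.23 in forelimb (adjusted p = 8.27e-09) and 1.74 ± 0.23 in hindlimb (adjusted p = 4.25e-08, or 1.72 without replicate 3). Igfbp5 was the only gene of the 10 called for this difference, in both limbs, beside 12.3% of all genes in forelimb and 12% in hindlimb, and both differences share the whole-embryo arrays.

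The 2 Igfbp5 probe sets gave different answers in whole embryo. Probe set 1452114_s_at rose there by 1.61 (adjusted p = 8.76e-08), beside 2.17 in forelimb and 2.26 in hindlimb, and its limb changes exceeded that of whole embryo by only 0.56 (adjusted p = 0.0814) and 0.65 (adjusted p = 0.051). Probe set 1422313_a_at fell by 1.68 in whole embryo (adjusted p = 5.83e-06), beside rises of 1.45 in forelimb and 1.15 in hindlimb, which gave differences of 3.12 and 2.83. The rise in both limbs was therefore carried by both probe sets, and the level course in whole embryo was a mean of a rise and a fall.

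**Figure D4:**
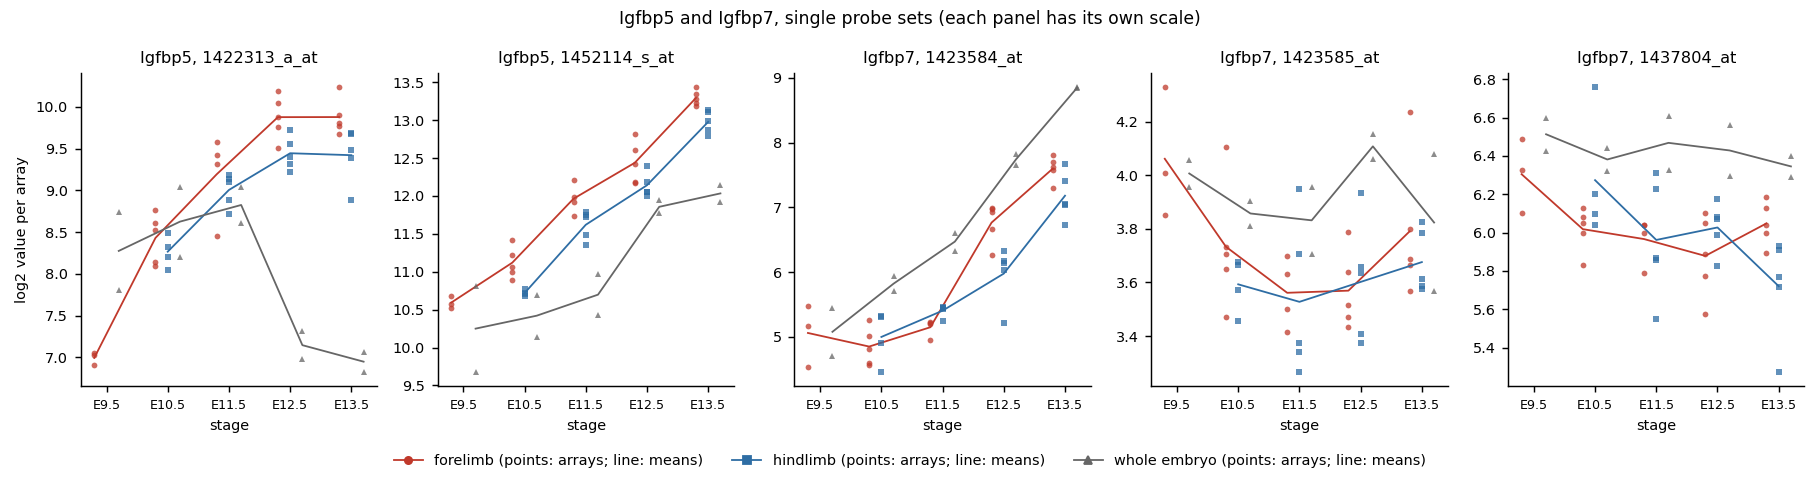
Log2 intensity of the Igfbp5 and Igfbp7 probe sets on each array by stage, in forelimb (red circles), hindlimb (blue squares) and whole embryo (grey triangles). The Igfbp5 probe sets part in whole embryo, where 1 rises by 1.61 and the other falls by 1.68. Of the Igfbp7 probe sets only 1423584_at moves by a fold of 2 or more between E10.5 and E13.5.

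Pappa2, the protease gene, read 5.604, 5.08, 5.41, 5.05 and 5.15 in forelimb at E10.5, followed by 6.06, 6.13, 6.44 and 6.22 at E11.5, by 7.13, 7.15, 7.03, 7.69 and 7.36 at E12.5, and lastly by 8.17, 8.05, 8.23, 8.12 and 7.85 at E13.5. Hindlimb read 5.69, 4.74, 5.66 and 5.43 at E10.5, followed by 5.30, 5.999, 5.003, 5.20 and 5.96 at E11.5, by 5.95, 6.26, 6.74, 6.47 and 6.39 at E12.5, and lastly by 7.23, 7.96, 7.51, 7.82 and 7.74 at E13.5. The forelimb arrays of each stage lay above all those of the stage before. In hindlimb the arrays of E11.5 overlapped those of E10.5 and those of E12.5, while E12.5 lay above E10.5 on all arrays. Those of E13.5 stood clear of every earlier stage. E13.5 over E10.5 gave 2.82 ± 0.17 in forelimb (adjusted p = 1.71e-18), the largest such change among the 10 genes in the limbs, with 2.27 ± 0.18 in hindlimb (adjusted p = 1.33e-14, and 2.36 without replicate 3) and 1.60 ± 0.27 in whole embryo (adjusted p = 3.97e-06). The forelimb change exceeded that of whole embryo by 1.22 (adjusted p = 0.00172), which did not pass the threshold. At E12.5 all forelimb arrays lay above all hindlimb arrays, with a log2 fold change of 0.91 (adjusted p = 0.000263), under a fold of 2. Without E12.5 hindlimb replicate 3 it was 1.01 (adjusted p = 0.000137) and was called.

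Igfbp2 and Igfbp4 were bright and moved little in the limbs from E10.5 on. Igfbp2, whose protein binds IGF2 more tightly than IGF1, averaged 11.08, 11.30, 11.51 and 10.94 in forelimb and 10.499, 11.41, 11.43 and 11.36 in hindlimb. Hindlimb lay below forelimb at E10.5 on all arrays (0.58, adjusted p = 0.061, and 0.55 without hindlimb replicate 3) and above it at E13.5 on all arrays (-0.42, adjusted p = 0.26), and neither passed the test. The hindlimb step at E11.5 over E10.5 was 0.91 (adjusted p = 0.000791), or 0.88 without replicate 3, and E10.5 over E9.5 forelimb was called at 1.41 ± 0.23 (adjusted p = 1.49e-06), across the sets of arrays. Igfbp4, a binding protein known to hold IGF from its receptor, averaged 11.76, 11.97, 11.99 and 12.03 in forelimb and 11.41, 11.65, 11.72 and 11.90 in hindlimb. All forelimb arrays lay above all hindlimb arrays at each of the 4 stages, by small steps of 0.35, 0.32, 0.26 and 0.14 that did not pass the test (adjusted p = 0.181, 0.409, 0.331 and 0.76). The first was 0.30 without hindlimb replicate 3. All these tests share 1 spread over the 14 groups. At E9.5 whole embryo had an SD of 1.63 for Igfbp2 and 1.18 for Igfbp4, against 0.05 and 0.03 in E13.5 forelimb. A limb difference that did not pass for these 2 genes was thus also set against the spread of whole embryo. It does not show that the limbs were alike. In whole embryo Igfbp4 was called higher at E13.5 over E10.5 (1.42, adjusted p = 1.07e-05), and at 1.05 (adjusted p = 0.00504) without E10.5 whole embryo replicate 1 it was not.

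Igfbp6 and Igfbp7 read low. Igfbp6, whose protein prefers IGF2, averaged 5.66 at E13.5 and 4.76 at E10.5 in forelimb, a change of 0.90 (adjusted p = 4.05e-08). The changes were 0.59 in hindlimb (adjusted p = 0.000204, and 0.48 with adjusted p = 0.00364 without replicate 3) and 0.92 in whole embryo (adjusted p = 0.000164), and none reached a fold of 2. Igfbp7 encodes a distant relative with weak affinity for IGF that is found around blood vessels. Its mean over 3 probe sets changed by 0.95 in forelimb (adjusted p = 4.21e-12) and was not called. Its probe set 1423584_at read 7.29, 7.70, 7.58, 7.80 and 7.62 at E13.5 and 5.02, 4.82, 4.59, 4.57 and 5.26 at E10.5 in forelimb, without overlap. That probe set was called higher at E13.5 in forelimb (2.75 ± 0.19, adjusted p = 9.19e-17), hindlimb (2.18 ± 0.20, adjusted p = 6.68e-13, and 2.29 without replicate 3) and whole embryo (3.03 ± 0.30, adjusted p = 1.73e-11), and the mean of the gene understates it. In hindlimb another Igfbp7 probe set, 1437804_at, went the other way by less than a fold of 2 (-0.55, limma adjusted p = 0.00049, and -0.63 without replicate 3). Over single probe sets, 12.8%, 14.4% and 13.3% of all were called in forelimb, hindlimb and whole embryo.

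Socs2 was higher in forelimb than in hindlimb on every array of every stage they share. At E12.5 forelimb read 6.07, 6.24, 6.12, 6.27 and 6.25, against 5.58, 5.43, 5.599, 5.68 and 5.76 in hindlimb. The log2 fold changes were 0.33 (adjusted p = 0.000805, and 0.29 with adjusted p = 0.0107 without hindlimb replicate 3), 0.49 (adjusted p = 4.76e-06), 0.58 (adjusted p = 2e-08) and 0.46 (adjusted p = 4.55e-06) from E10.5 to E13.5, none of them a fold of 2. The difference was larger on its brightest probe set, 1449109_at, which read 10.48, 10.53, 10.66, 10.57 and 10.60 in forelimb at E12.5 and 9.62, 9.12, 9.45, 9.49 and 9.35 in hindlimb. Forelimb over hindlimb on this probe set was 0.75, 0.58, 1.16 and 0.78 from E10.5 to E13.5, and E12.5 was called (adjusted p = 1.07e-13). Without E10.5 hindlimb replicate 3 the first value was 0.75 as well. A second probe set, 1418507_s_at, gave 0.94, 0.75, 1.10 and 0.72 and was called at E12.5 too (adjusted p = 4.6e-09). The other 4 Socs2 probe sets read low and brought the mean of the gene down. Among all probe sets, 0.658%, 0.398%, 0.506% and 0.277% were called between the limbs from E10.5 to E13.5.

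**Figure D5:**
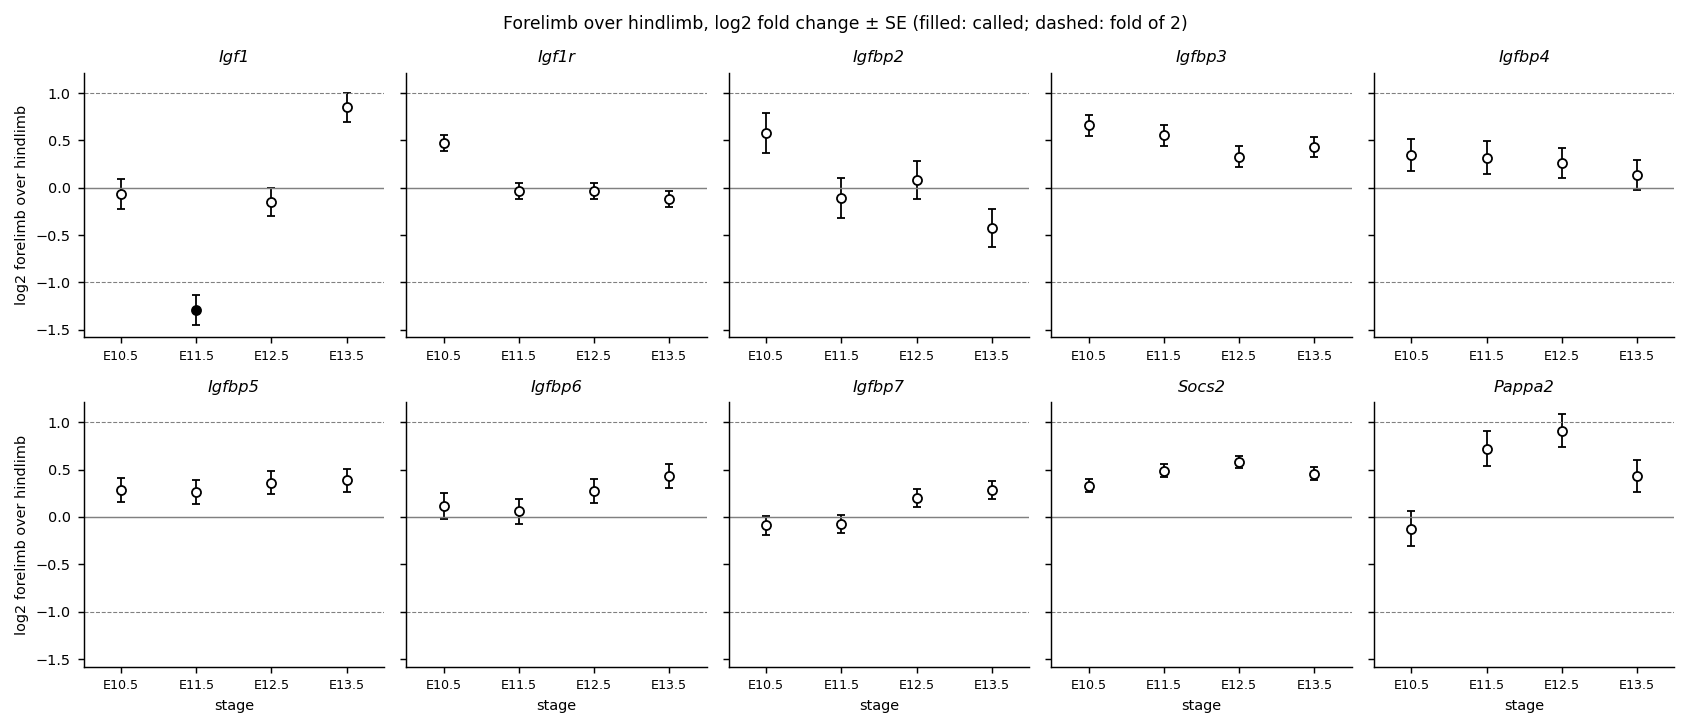
Log2 fold change of forelimb over hindlimb (± SE) for the 10 IGF genes at the 4 shared stages. Filled points are called and dashed lines mark a fold of 2, which Igf1 at E11.5 (-1.29) passes, and Socs2 lies above 0 at every stage, between 0.33 and 0.58.

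Between the limbs of 1 stage, 1 of 40 comparisons of the 10 genes was called, that of Igf1. Of all genes, 0.566%, 0.412%, 0.506% and 0.286% were called from E10.5 to E13.5. Over the same stages 5, 5, 3 and 6 of the 10 genes had no overlap between the limbs, as had 17.7%, 10.1%, 13.4% and 8.77% of all genes. The median log2 fold change of the 10 was 0.31, 0.16, 0.27 and 0.41, beside -0.03, 0.00, 0.01 and 0.00 over all genes, and 7, 6, 8 and 8 of the 10 lay above 0. These counts and medians too describe genes chosen with earlier results known, and are no test. Cartilage markers were called higher in forelimb for 2, 2, 3 and 1 of 10 genes at the 4 stages, and their part in these small differences was not tested.

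The hindlimb bud appears later than the forelimb bud, so each forelimb stage was also set against the next hindlimb stage. Igf1 read lower in forelimb in all 3 such comparisons, with log2 fold changes of -1.05 at E10.5 over E11.5 (adjusted p = 1.33e-06), -0.90 at E11.5 over E12.5 (adjusted p = 0.00021) and -0.42 at E12.5 over E13.5 (adjusted p = 0.0216). The first was the only one of 30 called over the 10 genes, and it fell just under a fold of 2 without E10.5 forelimb replicate 1 (-0.98) or 3 (-0.97), or without E11.5 hindlimb replicate 1 (-0.97). Socs2 remained higher in forelimb without overlap, by 0.24 (adjusted p = 0.0106), 0.51 (adjusted p = 1.9e-06) and 0.58 (adjusted p = 1.73e-09). Of all genes 0.989%, 0.28% and 1.46% were called in these comparisons. The forelimb arrays are the same in both kinds of comparison.

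Over consecutive stages, 6 of 70 comparisons were called. In the forelimb these were Igf1 and Igfbp2 at E10.5 over E9.5, Pappa2 at E12.5 over E11.5 (1.06, adjusted p = 4.57e-05) and Igf1 at E13.5 over E12.5. In the hindlimb they were Igfbp3 at E11.5 over E10.5 (1.08, adjusted p = 2.85e-10, and 1.10 without replicate 3 of E10.5) and Pappa2 at E13.5 over E12.5 (1.29, adjusted p = 4.95e-08). Pappa2 at E12.5 over E11.5 was not called without E12.5 forelimb replicate 4 (0.95, adjusted p = 0.00044). Igfbp5 took steps of 0.98, 0.80, 0.58 and 0.43 in forelimb and 0.82 (0.80 without replicate 3 of E10.5), 0.48 and 0.41 in hindlimb, so that its rise was spread over the stages and no single step was called. Of all genes, 7.54%, 2.07%, 0.764% and 2.71% were called in the forelimb steps and 2.32%, 0.824% and 1.95% in the hindlimb steps.

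Against whole embryo of the same stage, 14 of 90 comparisons were called, 13 higher and 1 lower in limb. Forelimb had 2 of 10 genes called at E9.5, E10.5, E11.5 and E13.5 alike, beside 3.69%, 13.9%, 15.3% and 13.7% of all genes. Hindlimb had 0 of 10 at E10.5, 2 at E11.5 and 2 at E13.5, beside 13.2%, 15.7% and 14.4%. At E12.5, 1 of 10 was called in either limb, higher in limb, as were 8.52% of all genes in forelimb and 7.11% in hindlimb. The shares at the other stages count both directions, and at E12.5 another 990 genes in forelimb and 988 in hindlimb were called lower. The early calls on gene means were Igfbp3 and Igfbp4, and the late ones Igfbp5 and Igf1r. Both limbs of a stage share the same 2 whole-embryo arrays. From E10.5 on all 7 neuron markers and 6 to 8 of 8 liver markers were called lower in limb, and their part was not tested.

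Igfbp3 on the E9.5 forelimb arrays read 8.76, 8.50 and 8.70, against 7.82 and 6.86 in whole embryo. The differences of forelimb over whole embryo were 1.32 at E9.5 (adjusted p = 7.7e-09), 1.47 at E10.5 (adjusted p = 4.97e-12) and 1.38 at E11.5 (adjusted p = 7.06e-11), with 0.52 and 0.73 at the later stages. Without E9.5 whole embryo replicate 2 the first was 0.84 and was not called. On 1423062_at, the Igfbp3 probe set of highest mean, E9.5 gave 1.35 and was called, while E10.5 and E11.5 gave 0.65 and 0.61 and were not. The other probe set, 1458268_s_at, gave 2.29 and 2.14 at these stages. They stood 0.48 to 1.26 apart on the limb arrays from E10.5 on and 2.00 to 2.51 apart on the other 13 arrays, so that the size of the later differences differed with the probe set and with the set of arrays. Igfbp4 on the E9.5 forelimb arrays read 11.83, 12.00 and 11.63, against 11.07 and 9.40 in whole embryo. Its differences were 1.58, 1.32 and 1.54 in forelimb from E9.5 to E11.5 and 0.97 and 1.22 in hindlimb at E10.5 and E11.5, with 0.20 and 0.17 in forelimb and -0.06 and 0.03 in hindlimb at the later stages. Each called value rested on 1 low whole-embryo array: they were 0.74 without E9.5 replicate 2, 0.95 in forelimb without E10.5 replicate 1, and 0.91 in forelimb and 0.59 in hindlimb without E11.5 replicate 1, none of them called. The E10.5 hindlimb value was 1.02 (adjusted p = 0.000304), and called, without hindlimb replicate 3. On 1437405_a_at, the Igfbp4 probe set of highest mean, the forelimb values were 0.97, 0.14 and 0.47, and none was called.

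Socs2 was not called against whole embryo as a mean of 6 probe sets, with 0.42, 0.61, 0.74, 0.74 and 0.45 in forelimb from E9.5 to E13.5. Its brightest probe set, 1449109_at, was called higher in forelimb at all 5 stages, by 1.32, 2.71, 2.54, 2.57 and 1.76 (adjusted p = 2.27e-11 to 7.5e-24), and in hindlimb at E10.5, E11.5 and E12.5, by 1.96 (1.97 without hindlimb replicate 3), 1.96 and 1.41, with 0.99 at E13.5. At E9.5, within a set of arrays though with unlike controls, it read 8.90, 9.15 and 9.01 in forelimb, against 7.86 and 7.53 in whole embryo. The probe set 1418507_s_at gave 1.38, 1.54, 1.52, 0.95 and 0.47 in forelimb, called at the first 3 stages. Of all probe sets, 4.73%, 19.5%, 21.3%, 19.6% and 19% were called in forelimb over whole embryo from E9.5 to E13.5 and 18.9%, 22%, 17.7% and 19.4% in hindlimb over whole embryo from E10.5 on. The difference between these probe sets of Socs2 was 1.17 to 2.05 on the limb arrays from E10.5 on and -0.09 to 0.67 on the other 13 arrays.

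The difference of Igfbp5 from whole embryo grew from stage to stage. Forelimb over whole embryo was -0.47, 0.25, 0.82, 1.65 and 2.09 from E9.5 to E13.5 and hindlimb over whole embryo -0.03, 0.55, 1.29 and 1.71 from E10.5 on. The values at E12.5 and E13.5 were called in both limbs (adjusted p = 4.4e-12 and 3.85e-15 in forelimb, 3.17e-09 and 1.71e-12 in hindlimb). On 1452114_s_at, the Igfbp5 probe set of highest mean, only E13.5 forelimb was called among these (1.26), with 0.58 in forelimb and 0.28 in hindlimb at E12.5 and 0.94 in hindlimb at E13.5. Pappa2 was called lower in the E11.5 hindlimb, at 5.30, 5.999, 5.003, 5.20 and 5.96 against 7.12 and 6.70 in whole embryo (-1.42, adjusted p = 7.83e-07). In the E11.5 forelimb it was -0.69 and not called.

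Other genes of the pathway were read from lists of 73 genes, of which 67 were measured. At E13.5 over E10.5, 13 were called higher and 1 lower in forelimb, 14 higher and 1 lower in hindlimb with or without E10.5 replicate 3, and 11 higher and 2 lower in whole embryo. The share called among all genes, in either direction, was 10.6% in forelimb, 11.1% in hindlimb and 11.2% in whole embryo. It applies to the smaller lists below as well. These lists were also chosen with earlier results of these data known. Of 10 proteases of binding proteins and their inhibitors, 5 were called higher in either limb and 4 in whole embryo. Htra1, a secreted serine protease that cuts IGFBP5 and matrix proteins, rose by 3.62 in forelimb, 3.31 in hindlimb and 3.22 in whole embryo. Pappa, the relative of Pappa2 that cleaves IGFBP4, rose by 1.71 and 1.37 in the limbs and read 0.17 in whole embryo. Of 8 other IGF binding proteins, 5 were called higher in forelimb, 4 in hindlimb and 4 in whole embryo. Igfbp1, which the liver secretes, rose by 2.14 in forelimb, 1.69 in hindlimb and 5.26 in whole embryo. Liver markers were called higher for 8 of 8 genes in whole embryo and for 0 of 8 in either limb, and their part was not tested. Ccn2, a matrix signalling protein of cartilage, rose by 2.31, 1.92 and 1.17.

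Igf2r, the receptor that clears IGF2, rose by 1.32 in forelimb and 1.40 in hindlimb, and was the only one of 3 further receptors called. The growth hormone receptor gene Ghr rose by 1.79 and 2.22, and 1 of 12 genes of its list was called in each limb. Of 19 measured PI3K, AKT and mTOR genes, Pik3r1, a regulatory subunit of PI3K, was the one called in both limbs (1.45 and 1.42). Igf2bp1, an RNA-binding protein that binds Igf2 mRNA, fell by 1.37 in forelimb, 1.24 in hindlimb and 1.57 in whole embryo. Igf2, the other ligand, was called higher at E13.5 over E10.5 in whole embryo (1.78) and not in the limbs (0.33 in forelimb and 0.54 in hindlimb). Between the limbs of 1 stage, 2 of the 67 genes were called, Igfbp1 (1.29, adjusted p = 8.27e-08) and Ccn2 (1.05, adjusted p = 5.58e-08), both higher in forelimb at E12.5. The share called among all genes at that stage was 0.506%.

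Markers of differentiating tissues rose over the same stages as Igfbp3, Igfbp5 and Pappa2. Of 10 cartilage markers, 9 were called higher at E13.5 over E10.5 in each of the 3 tissues. Their mean was 9.08 to 9.40 at E13.5 and 6.16 to 6.45 at E10.5 in forelimb, 8.44 to 8.88 and 5.98 to 6.04 in hindlimb, and 9.01 to 9.23 and 5.90 to 6.03 in whole embryo. Of 10 skeletal muscle markers, 8 were called higher and 1 lower in either limb, with means of 8.90 to 9.04 at E13.5 and 5.31 to 6.03 at E10.5 in forelimb. Tendon markers were called higher for 4 of 5 genes in each tissue, and macrophage markers for 5, 4 and 6 of 6 genes in forelimb, hindlimb and whole embryo. The shares called among all genes were 10.6%, 11.1% and 11.2% in these tissues. The part of these cells in the rise of Igfbp3, Igfbp5 and Pappa2 was not tested.

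The genes whose group means ran most like those of an IGF gene over the 8 limb groups from E10.5 on were sought among 3084 genes that span a fold of 2 or more. Igfbp3 ran most like Rbms3 (Pearson's r = 0.997), Igfbp5 like Ugp2 (0.998), Pappa2 like Atxn1 and Myot (0.997 each), Igfbp6 like Gas6 (0.992) and Igfbp2 like Zfp467 (0.966). Igf1 had no partner as close, with Abca8b at 0.892, C1qtnf3 at 0.875 and Slitrk4 at 0.873. Over all 14 groups, Igf1r ran most like Inppl1 (0.986), Igfbp4 like Cldnd1 (0.983) and Igfbp5 like Ghr (0.972). These are descriptions over 8 or 14 points that share arrays, stages and, over 14 groups, the 2 sets of arrays. Within the 10 genes, Igf1 ran with neither Socs2 (-0.03) nor Igfbp2 (0.12) over the 8 limb groups.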

How the data were processed

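The expression of 10 IGF genes was examined on 51 Affymetrix arrays of forelimb, hindlimb and whole embryo. The authors deposited linear intensities obtained by RMA (background correction, quantile normalization and median polish, at default settings), whose version is not given in the sources used here. A blemish on a whole-embryo array of E12.5 had been corrected by them with the median of its group. The values were taken to log2, with no filter on dim genes, and a gene's probe sets were averaged. Of 45101 probe sets, 34958 have 1 gene symbol in the annotation, 932 have several and were left out, and the rest were not listed. A single limma model (limma 3.58.1, R 4.3.3) held all 14 groups (lmFit, contrasts.fit, eBayes, 37 residual degrees of freedom), and a call needed a fold of 2 or greater and a Benjamini-Hochberg adjusted p under 0.001 over the 18194 genes of a comparison. The planned analysis took the values to be on the log2 scale already, and the scale was set from the values themselves. The fit was tested on simulated data. Single probe sets were fitted alike.

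The members, the pathway lists and the marker lists were chosen with earlier results of these data known. All 10 members are named. Of each pathway list, genes called in the most comparisons were named, up to 4 a list, and the genes most alike were the 3 of highest Pearson correlation of group means. The comparisons were limb over whole embryo, forelimb over hindlimb of the same and of the next stage, each stage over the one before, E13.5 over E10.5, and the differences between such changes. On 2 arrays the labels disagree with each other, and these were grouped by their titles, which Tbx5, Tbx4 and Pitx1 bear out. The lowest correlation between arrays of a group was 0.970, and no arrays held identical values. Replicates number 2 to 5 a group, which limits the precision. Alternatives were the probe set of highest mean, quantile normalization, centring, fits of the groups compared alone, no fold threshold, no dim genes, eBayes with trend and robust settings, the arrays with conflicting labels left out, a replicate block, and each array left out in turn.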

Additional observations from a re-analysis of the deposited data

Results flagged for a closer look

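Each of the 10 genes was examined in each limb group from E10.5 on, which hold 4 or 5 arrays. In 5 of these 80 pairs of gene and group (6.25%), 1 array lay far from the others by Dixon's test at the 95% level. Chance alone gives this for about 1 in 20 pairs, though the pairs share arrays and are not independent. Igf1 on E10.5 hindlimb replicate 3 read 8.31, against 9.02 to 9.09 on the other 3 arrays, and this array also read the neuron markers at 7.26. Igf1r on E10.5 forelimb replicate 1 read 8.11, against 7.80 to 7.86 on the others. On the same array Igfbp4 read 11.9, against 11.7 to 11.75. Igfbp3 read 7.83 on E10.5 hindlimb replicate 1, against 8.06 to 8.10, and 9.61 on E12.5 hindlimb replicate 1, against 9.88 to 9.97. All of these arrays were kept.

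The change of Igfbp5 from E10.5 to E13.5 differed between limb and whole embryo, by 1.84 in forelimb (limma adjusted p = 8.27e-09) and by 1.74 in hindlimb (adjusted p = 4.25e-08). On its probe set of highest mean, 1452114_s_at, neither difference was called, and that in hindlimb was 0.65 (limma adjusted p = 0.051). Such a difference was called for 12.3% of all genes in forelimb and 12% in hindlimb. Igfbp5 was higher at E13.5 on 5 of 5 arrays in either limb. Igf1 in forelimb over hindlimb differed between E13.5 and E11.5 by 2.14 (adjusted p = 5.19e-08), with the limbs in opposite order at these stages and no overlap at either. This last comparison was chosen after the values had been seen, and it ranged from 1.67 to 2.29 over 30 alternatives (adjusted p = 1.11e-08 to 1.11e-06).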

How the results depend on the processing

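The thresholds were also relaxed singly, an alternative chosen after seeing the data. The share of all genes called at the relaxed thresholds was not computed. The relaxed counts below therefore show only how the calls depend on the threshold. Without the fold threshold, at an adjusted p under 0.001, calls came to 38 of 90 for limb over whole embryo, 9 of 40 for forelimb over hindlimb, 4 of 30 for next-stage hindlimb, 23 of 70 for consecutive stages, 20 of 30 for E13.5 over E10.5, 3 of 20 for the limb changes minus that of whole embryo, 1 of 10 for the change of forelimb over hindlimb and 68 for single probe sets. With the fold threshold kept, at an adjusted p under 0.05, the limb changes minus that of whole embryo gave 4, and no other count changed. With both relaxed, at an adjusted p under 0.05 and no fold threshold, calls came to 58 of 90 for limb over whole embryo (14 with it), 16 of 40 for forelimb over hindlimb (1), 10 of 30 for forelimb over next-stage hindlimb (1), 35 of 70 for consecutive stages (6), 24 of 30 for E13.5 over E10.5 (11), 9 of 20 for the limb changes minus that of whole embryo (2), 3 of 10 for the change of forelimb over hindlimb (0) and 90 for single probe sets (39). With the probe set of highest mean alone, consecutive stages gave 11 calls and the limb changes minus that of whole embryo 0. On that probe set Igfbp4 in E10.5 hindlimb over whole embryo turned to -0.18 (adjusted p = 0.455) and Igf1r in E11.5 hindlimb over whole embryo to -0.17 (adjusted p = 0.279), and the cause was not tested. Quantile normalization run again gave 4 calls for the limb changes minus that of whole embryo. Fits of the groups compared alone gave 4 there and 9 for limb over whole embryo, with fewer arrays behind the spread. Leaving out the whole-embryo array of larger Gapdh distance at each stage, an alternative chosen after seeing the data, also gave 9 for limb over whole embryo.

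With each array left out in turn, calls ranged from 12 to 17 for limb over whole embryo, from 1 to 2 for forelimb over hindlimb, from 0 to 2 for forelimb over next-stage hindlimb, from 5 to 8 for consecutive stages, from 10 to 12 for E13.5 over E10.5, from 2 to 3 for the limb changes minus that of whole embryo, from 0 to 1 for the change of forelimb over hindlimb and from 35 to 40 for single probe sets. The 8 calls for consecutive stages came without E10.5 forelimb replicate 1, and the 2 for next-stage hindlimb without E11.5 forelimb replicate 1. Of 36 single calls, 15 held under all alternatives. Between limbs of the same replicate number, correlations of deviations were -0.11 to 0.35 over 18 pairs, above 0.1 in 9. In 5 pairs the forelimb array was closest to its own number. Whether the numbers pair the limbs of an embryo is thus not settled, and the main fit held no pairing. With the replicate block, forelimb over hindlimb gave 1 call, the change of forelimb over hindlimb 0, and the Igf1 reversal 2.19, so that no call changed. Centring the arrays moved the median of all genes by -0.14 for E13.5 over E10.5 in either limb. Levels of Igfbp6, Igfbp7 and Socs2 lay under the median of all genes, where small changes are hardest to see, and the 2 whole-embryo arrays a stage limit every comparison with limb.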
